A study of Homo sapiens with 20 samples.

Results

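Semaphorin, netrin and Slit guidance genes were followed in SUM159PT cells, an established human triple-negative breast cancer cell line. They were chosen by name, with earlier results of these data known. They are 10 of the 27864 Entrez genes in the count table: the ligands SEMA3A, SEMA3C, SEMA3F, NTN4 and SLIT2, and the receptors NRP1, NRP2, PLXNA1, UNC5B and ROBO1. Stranded mRNA libraries were sequenced from 20 samples in 7 groups. NNMT, the gene for nicotinamide N-methyltransferase, had been targeted by genome editing in 2 cell pools: KOs, made with a single guide at the transcription start site, and KOd, made with a guide pair that deletes exon 1. Each pool is an oligoclonal mix of several clones. The tumorsphere (3D) groups were labelled KOs 3D, KOd 3D and wt 3D, with 3 libraries each, taken as secondary tumorspheres after 2 rounds of 6 days in ultra-low attachment plates. The adherent (2D) groups were labelled KOs 2D, KOd 2D and wt 2D, also with 3 libraries each, grown in medium with serum, insulin and hydrocortisone. Tumorsphere medium was DMEM and F12 with B27, EGF and basic FGF in place of those additions. In a further group of 2 libraries, adherent wt cells were moved from the standard to the tumorsphere medium at 50% confluency, before collection at 80%. Between 3D and 2D the format, the medium and the RNA extraction kit all differ, so their effects cannot be told apart in that comparison. Replicates are not said to be separate cultures, and the p-values therefore speak of the spread among the sequenced libraries, which may be technical.

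Class 3 semaphorins are secreted proteins that repel or steer growing axons and migrating cells. They bind neuropilins, which hold the ligand, and signal through plexins, whose cytoplasmic part acts on small GTPases and the cytoskeleton. Netrins bind DCC and UNC5 receptors, and UNC5 receptors carry the repulsive response. Netrin-4, encoded by NTN4, is a basement membrane netrin that binds laminin. Slits are secreted ligands of Robo receptors. The same proteins act outside the nervous system, in blood vessel growth and in the migration and invasion of breast cancer cells.

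NNMT mRNA was at 5.15 ± 0.497 CPM (read counts scaled by TMM to a common library size; mean ± SD, n = 3) in KOd 3D against 98.4 ± 27.5 CPM in wt 3D, and at 4.55 ± 0.139 CPM in KOd 2D against 117 ± 13.3 CPM in wt 2D. In the libraries labelled KOs it was at 84.8 ± 1.75 CPM in 3D and 106 ± 27.6 CPM in 2D, overlapping the wt libraries in each culture (log2 fold change against wt -0.21 in 3D and -0.14 in 2D, adjusted p = 0.301 and 0.518). A small edit need not lower an mRNA, so this does not test the editing, and these libraries are called labelled KOs throughout. Counts summed to 37316513 to 43744817 per library in labelled KOs and to 26396964 to 32016875 in the other 14 libraries. Genes annotated as ribosomal RNA took 0.696 to 2.38% of counts in labelled KOs and 2.56 to 8.32% elsewhere, so a library difference and the pool cannot be told apart there. Replicate A of labelled KOs 2D, replicate C of KOd 3D and replicate C of wt 3D, known from earlier results of these data to stand apart, were each the farthest from the other libraries of their own group. Their root mean square difference in log2 CPM was 0.780 in labelled KOs 2D, against 0.598 and 0.647 for its other replicates, 0.476 in KOd 3D, against 0.387 for each of the others, and 0.605 in wt 3D, against 0.452 and 0.461. Counts of called genes are also given without those 3 libraries, with the share of all genes then called. Tumorsphere medium against wt 2D and KOd 2D against wt 2D hold none of them. In those comparisons only the fit shared by all groups, with its estimate of the spread, changed. VIM was high, at 2537 to 5967 CPM, and ESR1, PGR and EPCAM stayed under 0.426 CPM in every library. ERBB2 was at 54.2 to 99.0 CPM. All 10 guidance genes passed the filter on low counts and lay over its 0.343 CPM level in 20 of 20 libraries. In bulk RNA, fewer cells with a transcript and less of it per cell cannot be told apart.

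SEMA3A and SEMA3C lie on chromosome 7, SEMA3F, PLXNA1 and ROBO1 on chromosome 3, NRP1 and UNC5B on chromosome 10, NRP2 on chromosome 2, NTN4 on chromosome 12 and SLIT2 on chromosome 4. Promoter sequence was at hand for 7 of the 10 genes in the RefSeq table for GRCh38.p14, and not for SEMA3A, NRP1 and UNC5B. The 3 printed here are those of the riser PLXNA1, the riser SEMA3C and the gene with the largest fall, NRP2. Each is the 250 bases before the annotated start, written 5′ to 3′ in the direction of the gene, and capitals mark GC boxes (GGGCGG or its reverse complement). PLXNA1 lies at chr3:126982865-126983114 on the plus strand, SEMA3C at chr7:80922390-80922639 on the minus strand, and NRP2 at chr2:205682251-205682500 on the plus strand.
PLXNA1: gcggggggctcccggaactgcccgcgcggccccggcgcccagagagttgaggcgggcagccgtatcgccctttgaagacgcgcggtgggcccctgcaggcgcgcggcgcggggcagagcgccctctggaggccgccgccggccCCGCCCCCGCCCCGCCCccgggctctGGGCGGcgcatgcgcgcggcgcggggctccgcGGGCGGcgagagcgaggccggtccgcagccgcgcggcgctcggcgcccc
SEMA3C: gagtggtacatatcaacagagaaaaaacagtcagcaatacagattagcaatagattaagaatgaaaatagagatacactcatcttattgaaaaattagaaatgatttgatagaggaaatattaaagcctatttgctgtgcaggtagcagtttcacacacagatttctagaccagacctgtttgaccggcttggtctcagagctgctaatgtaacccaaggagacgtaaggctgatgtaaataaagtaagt
NRP2: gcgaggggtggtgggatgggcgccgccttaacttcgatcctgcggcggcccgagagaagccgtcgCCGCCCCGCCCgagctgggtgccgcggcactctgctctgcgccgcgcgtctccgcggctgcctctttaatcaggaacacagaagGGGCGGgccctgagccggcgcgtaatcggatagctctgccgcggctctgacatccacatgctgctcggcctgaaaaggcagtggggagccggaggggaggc
PLXNA1 held 5 GC boxes in a window of 84.4% G or C, NRP2 held 3 GC boxes at 70% G or C, and SEMA3C held none at 36.4% G or C. Over 27305 promoters of the same length the median was 58% G or C and 42.3% had a GC box on either strand. SEMA3F had 12 GC boxes, SLIT2 had 5, and NTN4 and ROBO1 had none. The AP-1 letters TGAGTCA, the TEAD letters GGAATG and the hypoxia core ACGTG, each searched on both strands, were in none of the 7 windows, against 4.16%, 11.9% and 18.7% of all promoters. The E-box CACCTG was in 1 of the 7, SEMA3F, against 17.5% of all promoters. These matches are letters in a window and show no binding. PLXNA1 and SEMA3C, which rose together in tumorspheres, had unlike windows, rich and poor in G and C. The windows follow the annotated gene start, and which start these cells used was not tested.

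**Figure D1:**
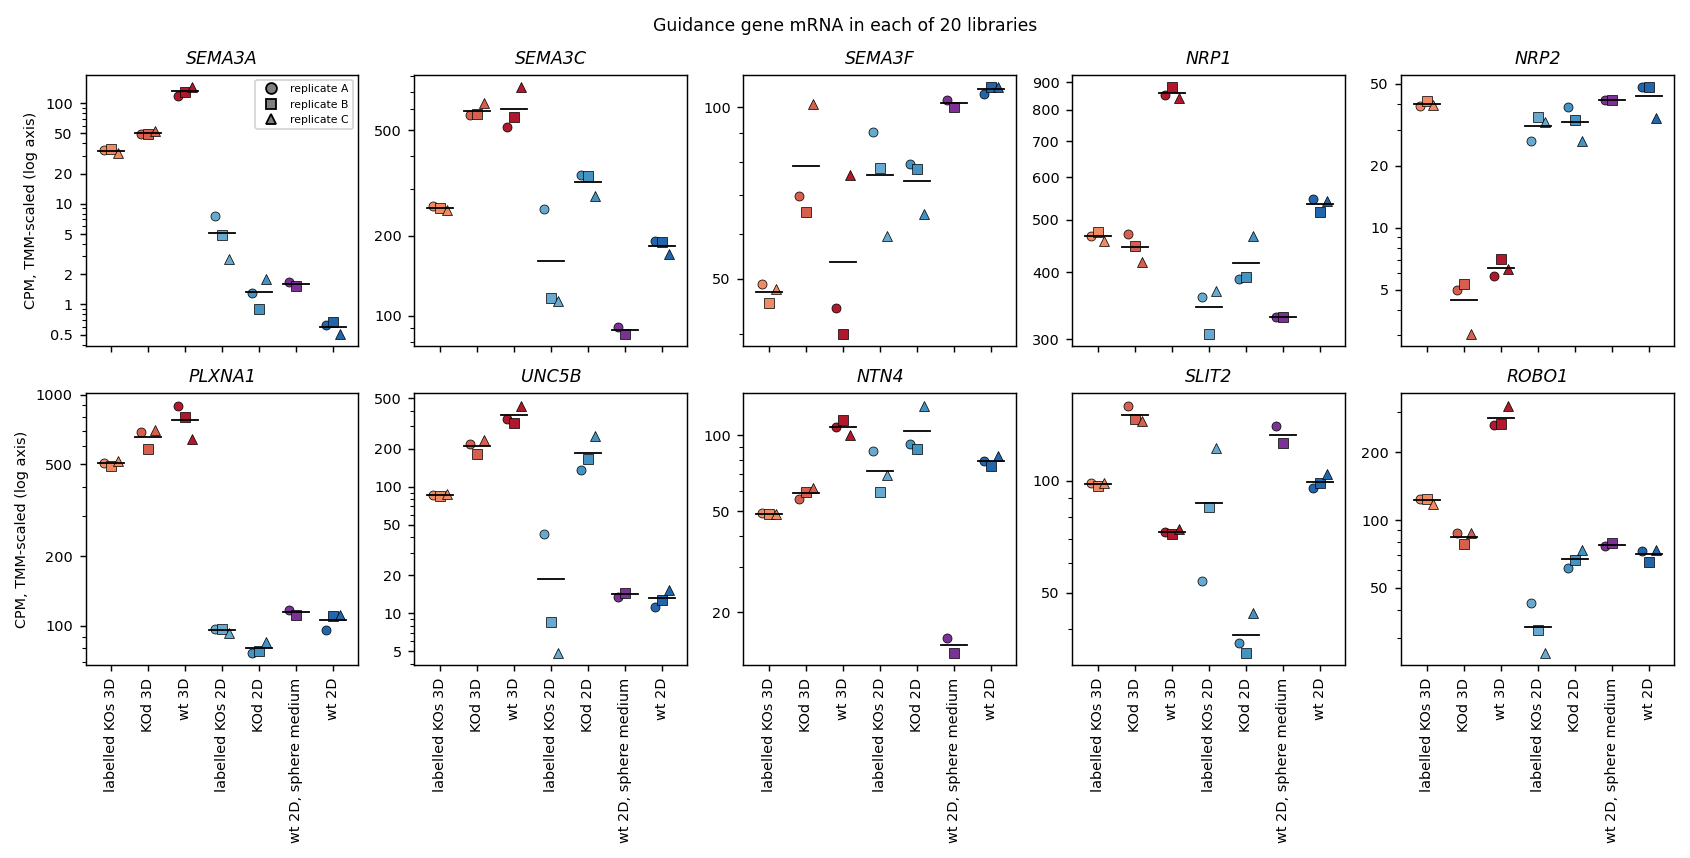
Level of each guidance gene in each library, in TMM-scaled CPM on a log axis that differs between panels, with 1 point per library, replicate letters as point shapes and the group mean as a bar. SEMA3A and PLXNA1 are highest in the 3D groups, NRP2 is low in KOd 3D and wt 3D but not in labelled KOs 3D, and UNC5B is high in KOd 2D.

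In wt tumorspheres all 10 genes differed from wt 2D by edgeR's quasi-likelihood test (adjusted p under 0.05), 7 higher and 3 lower, in a comparison that called 63.7% of the 16323 genes tested (33.3% higher and 30.4% lower). The median log2 fold change was 1.20 over the 10 genes and 0.04 over all genes. The same 7 and 3 were called without the libraries that stood apart, where 70.5% of all genes were called. SEMA3A, PLXNA1, UNC5B and ROBO1 had the largest increases and NRP2 the largest decrease.

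Among the ligands, SEMA3A was at 119, 128 and 145 CPM in wt 3D, against 0.622, 0.671 and 0.510 CPM in wt 2D. Every tumorsphere library lay far above every adherent one, a 216-fold difference (log2 fold change 7.76 ± 0.31, adjusted p = 1.1e-12). The wt 2D values rest on 17, 18 and 13 reads, which limits the precision of the fold. SEMA3C, a semaphorin known in other work to promote migration in several cancers, was at 517, 560 and 729 CPM in wt 3D against 191, 190 and 171 CPM in wt 2D. The groups did not overlap, and SEMA3C rose 3.27-fold (log2 1.71 ± 0.22, adjusted p = 2.8e-06). SEMA3F, known as a neuropilin-2 ligand with a repulsive effect on endothelial and tumour cells, went the other way, with 44.5, 40.0 and 76.1 CPM in wt 3D against 106, 109 and 108 CPM in wt 2D (log2 -1.01 ± 0.20, adjusted p = 3.1e-04). Replicate C of wt 3D was the highest of its group, still below every wt 2D library. NTN4 was at 108, 115 and 100 CPM in wt 3D against 79.3, 75.5 and 83.0 CPM in wt 2D, and rose 1.36-fold (log2 0.44 ± 0.13, adjusted p = 0.00836). SLIT2 was at 72.9, 72.0 and 74.4 CPM in wt 3D against 95.4, 98.7 and 104 CPM in wt 2D. The SLIT2 groups did not overlap, and the fall (log2 -0.44 ± 0.18, adjusted p = 0.04) lost its call when any of the 6 libraries was left out (adjusted p = 0.059 to 0.098).

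Among the receptors, PLXNA1, the plexin-A1 subunit that carries class 3 semaphorin signals into the cell, was at 899, 802 and 642 CPM in wt 3D against 96.2, 110 and 112 CPM in wt 2D. Every tumorsphere library was higher, by 7.36-fold in the fit (log2 2.88 ± 0.11, adjusted p = 1.1e-12). UNC5B, a netrin receptor of the repulsive class, was at 342, 321 and 438 CPM in wt 3D against 11.2, 12.8 and 15.4 CPM in wt 2D. It rose in every tumorsphere library (log2 4.81 ± 0.54, adjusted p = 6.3e-07). ROBO1, the Slit receptor, was at 264, 267 and 322 CPM in wt 3D against 72.7, 64.9 and 73.8 CPM in wt 2D (log2 2.01 ± 0.14, adjusted p = 1.1e-09). The 2 neuropilins went opposite ways. NRP1, the neuropilin that SEMA3A binds, was at 852, 882 and 841 CPM in wt 3D against 546, 517 and 542 CPM in wt 2D (log2 0.68 ± 0.09, adjusted p = 2.1e-06). NRP2, the neuropilin that SEMA3F binds, was at 5.81, 7.02 and 6.27 CPM in wt 3D against 48.4, 48.4 and 34.3 CPM in wt 2D. No NRP2 value in wt 3D came near any in wt 2D, and the fall was 6.86-fold (log2 -2.78 ± 0.19, adjusted p = 1.1e-09). An antisense gene on the opposite strand overlaps exons of NRP1 over 561 bases, of NRP2 over 147 bases and of SEMA3F over 110 bases. The strand setting of the counting is not given in the sources used here, so reads of these antisense genes may be among the counts.

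Per kilobase of gene length, which allows genes to be compared, NRP1 led in wt 3D with a mean of 145 ± 3.60 CPM per kb, followed by SEMA3C at 112 ± 20.9 and PLXNA1 at 86.1 ± 14.3 CPM per kb. SEMA3A stood at 23.1 ± 2.33 CPM per kb in wt 3D, against 0.106 ± 0.0146 CPM per kb in wt 2D, where it was the lowest of the 10. NRP2 was the lowest of the 10 in wt 3D, at 0.825 ± 0.0789 CPM per kb, against 5.66 ± 1.05 CPM per kb in wt 2D. NRP1 led in wt 2D as well, at 90.4 ± 2.62 CPM per kb.

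The medium group changes the medium while the wt cells stay adherent, though its 2 libraries are few and the 3D and 2D kits still differ. Its cells were moved at 50% confluency and collected at 80%, while tumorspheres had 2 rounds of 6 days. Time in the medium may thus differ along with the format between this group and wt 3D, and the effects cannot be told apart there. In adherent wt cells in tumorsphere medium 1 gene was higher and 3 were lower than in standard wt 2D, in a comparison that called 32% of all genes (15.6% higher and 16.4% lower). Leaving out the libraries that stood apart gave 2 higher and 3 lower, with SLIT2 added (log2 0.42, adjusted p = 0.00397), where 49.3% of all genes were called. None of those libraries is in either group compared here, so the same libraries were compared. SLIT2 had the same log2 fold change of 0.42 in the full fit, with adjusted p = 0.12. NTN4 was at 15.8 and 13.8 CPM in tumorsphere medium against 79.3, 75.5 and 83.0 CPM in standard medium. Both libraries were far below all 3 of standard wt 2D, a 5.35-fold decrease (log2 -2.42 ± 0.17, adjusted p = 1.5e-08). SEMA3C was at 91.0 and 85.5 CPM in tumorsphere medium against 171 to 191 CPM in standard medium (log2 -1.06 ± 0.25, adjusted p = 0.00334). NRP1 was at 330 CPM in each tumorsphere medium library against 517 to 546 CPM in standard medium (log2 -0.70 ± 0.10, adjusted p = 3.3e-05). SEMA3A was at 1.65 and 1.53 CPM in tumorsphere medium against 0.510 to 0.671 CPM in standard medium, a log2 fold change of 1.40 ± 0.41 (adjusted p = 0.0134). That call was lost without either tumorsphere medium library (adjusted p = 0.078 without replicate A and 0.054 without replicate B), which leaves the group with a lone library assumed to vary like the other groups. PLXNA1, UNC5B, ROBO1 and NRP2 had log2 fold changes of 0.11, 0.10, 0.14 and -0.06 in tumorsphere medium, with adjusted p = 0.512, 0.919, 0.502 and 0.851.

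Set against adherent wt cells in tumorsphere medium, wt tumorspheres again differed in all 10 genes, 7 higher and 3 lower, where 62.8% of all genes were called (32.8% higher and 30% lower). These counts were the same without the libraries that stood apart, where 70.7% of all genes were called. SEMA3A was 82.0-fold higher in wt 3D than in tumorsphere medium (log2 6.36 ± 0.33, adjusted p = 5.3e-11), and UNC5B 26.1-fold higher (log2 4.70 ± 0.65, adjusted p = 6.5e-06). NTN4 averaged 107 ± 7.43 CPM in wt 3D against 14.8 ± 1.36 CPM in the medium group, a log2 difference of 2.86 ± 0.17 (adjusted p = 3.8e-10). NTN4, SEMA3C and NRP1 were thus below standard wt 2D in the changed medium and above it in tumorspheres. NRP2 averaged 6.37 ± 0.609 CPM in wt 3D against 41.9 ± 0.129 CPM in the medium group (log2 -2.72 ± 0.20, adjusted p = 3.8e-09). This comparison shares the wt 3D libraries with the one above and the medium libraries with the medium comparison, so its values are not separate evidence.

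**Figure D2:**
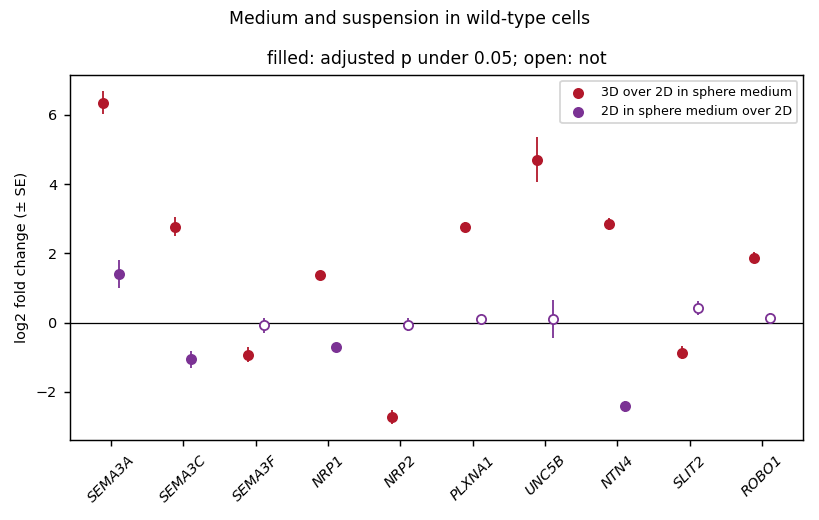
Log2 fold changes with SE bars for the 10 guidance genes in wt cells, for tumorspheres over adherent cells in tumorsphere medium and for adherent cells in tumorsphere medium over standard wt 2D, filled where adjusted p was under 0.05. NTN4 is at -2.42 for the medium alone and at 2.86 for tumorspheres over that medium, while SEMA3A is at 1.40 and 6.36.

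In the pools the 3D and 2D comparison was made on other libraries than in wt. Labelled KOs had 6 genes higher and 2 lower in 3D, where 65% of all genes were called (32.9% higher and 32.1% lower). KOd had 5 higher and 2 lower, where 66.4% of all genes were called (35.2% higher and 31.2% lower). Neither pair of counts changed without the libraries that stood apart, where 75.8% of all genes were called in labelled KOs and 74.3% in KOd. SEMA3A, SEMA3C, PLXNA1 and ROBO1, 4 of the 10, were higher in 3D in labelled KOs, KOd and wt alike, against 16.2% of all genes. None of the 10 was lower in all 3, against 15.9% of all genes. Both counts were the same without the libraries that stood apart, against 21.4% and 20.3% of all genes.

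SEMA3A was at 34.4, 35.3 and 32.0 CPM in labelled KOs 3D against 7.55, 4.94 and 2.84 CPM in labelled KOs 2D (log2 2.72 ± 0.22, adjusted p = 1.8e-08). In KOd it was at 49.8, 48.9 and 53.2 CPM in 3D against 1.30, 0.907 and 1.79 CPM in 2D (log2 5.24 ± 0.27, adjusted p = 2.6e-11). Tumorsphere libraries were above adherent ones without overlap in each pool, by less than in wt. PLXNA1 was at 507, 493 and 519 CPM in labelled KOs 3D against 96.9, 97.2 and 93.0 CPM in 2D (log2 2.40 ± 0.11, adjusted p = 1.5e-11). In KOd, PLXNA1 was at 691, 582 and 705 CPM in 3D against 76.7, 78.3 and 85.5 CPM in 2D (log2 3.04 ± 0.11, adjusted p = 6.6e-13). PLXNA1 thus lay several-fold above its adherent level in tumorspheres of either pool. ROBO1 rose clearly in labelled KOs, to 118 to 124 CPM in 3D against 25.8 to 42.9 CPM in 2D (log2 1.86 ± 0.14, adjusted p = 4.8e-09). In KOd it was at 77.9 to 87.5 CPM in 3D against 61.6 to 73.8 CPM in 2D (log2 0.32 ± 0.13, adjusted p = 0.0406). The KOd call for ROBO1 was lost without replicate A or B of KOd 2D or replicate A or C of KOd 3D (adjusted p = 0.087 to 0.14).

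SEMA3C was at 250 to 260 CPM in labelled KOs 3D against 253, 117 and 114 CPM in labelled KOs 2D (log2 0.66 ± 0.21, adjusted p = 0.0119). Replicate A of labelled KOs 2D reached the tumorsphere level, and without it the log2 fold change was 1.14. Without replicate B or C instead the call was lost (adjusted p = 0.071 and 0.07). In KOd, SEMA3C was at 573, 574 and 634 CPM in 3D against 340, 336 and 283 CPM in 2D (log2 0.90 ± 0.22, adjusted p = 0.00137).

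UNC5B and NRP2 each passed the test in one pool and not in the other; the difference between the pools' own responses was not tested. In labelled KOs UNC5B was at 86.6, 84.8 and 88.2 CPM in 3D against 42.0, 8.59 and 4.88 CPM in 2D (log2 2.22 ± 0.48, adjusted p = 6.5e-04, and 3.68 without replicate A of labelled KOs 2D). In KOd it was at 217, 182 and 232 CPM in 3D against 136, 165 and 250 CPM in 2D, and the groups overlapped (log2 0.20 ± 0.46, adjusted p = 0.717). Adherent KOd cells thus had UNC5B near the values of KOd tumorspheres.

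NRP2 was at 39.2, 41.4 and 39.6 CPM in labelled KOs 3D against 26.4, 34.6 and 32.8 CPM in labelled KOs 2D (log2 0.36 ± 0.17, adjusted p = 0.0731). In KOd it fell to 4.98, 5.30 and 3.05 CPM in 3D, against 38.7, 33.4 and 26.5 CPM in KOd 2D (log2 -2.88 ± 0.19, adjusted p = 7.8e-10). Tumorspheres of labelled KOs thus kept NRP2 above every adherent library of the same pool, while KOd tumorspheres lay far below theirs. NTN4 was lower in 3D in each pool, at 48.9 to 49.1 CPM in labelled KOs 3D against 59.7 to 86.7 CPM in 2D (log2 -0.56 ± 0.13, adjusted p = 0.00148). In KOd it was at 56.0 to 62.0 CPM in 3D against 88.0 to 131 CPM in 2D (log2 -0.81 ± 0.14, adjusted p = 4.6e-05), whereas it was higher in wt 3D. SLIT2 was at 159, 147 and 145 CPM in KOd 3D against 36.7, 34.5 and 44.2 CPM in KOd 2D, a 3.90-fold increase (log2 1.97 ± 0.19, adjusted p = 6.5e-08). In labelled KOs SLIT2 was at 97.0 to 98.6 CPM in 3D, inside the 2D spread of 53.7, 85.3 and 122 CPM (log2 0.17 ± 0.18, adjusted p = 0.417, and 0.50 with adjusted p = 0.0055 without replicate C of labelled KOs 2D). NRP1 rose in labelled KOs (log2 0.43 ± 0.09, adjusted p = 2.5e-04) and was at 418 to 470 CPM in KOd 3D against 389 to 468 CPM in KOd 2D (log2 0.10 ± 0.09, adjusted p = 0.33). SEMA3F fell in labelled KOs (log2 -0.68 ± 0.20, adjusted p = 0.00657) and was at 65.6 to 101 CPM in KOd 3D against 65.0 to 79.5 CPM in KOd 2D (log2 0.09 ± 0.20, adjusted p = 0.704).

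**Figure D3:**
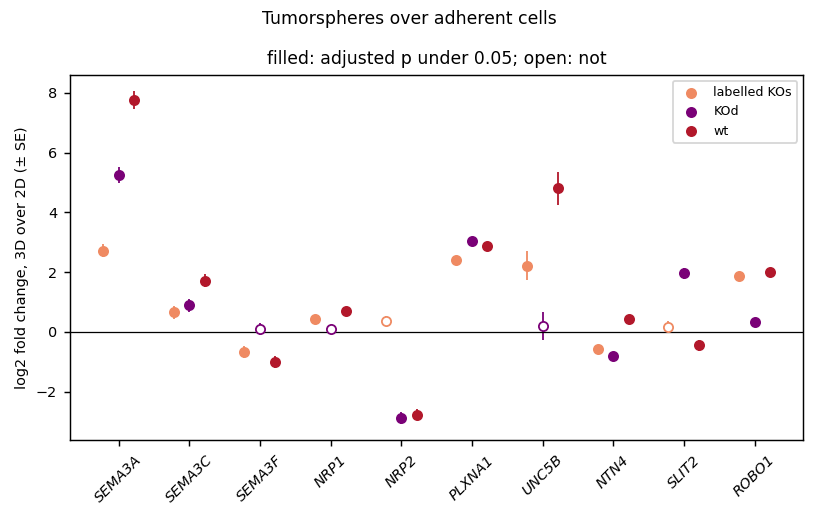
Log2 fold changes of tumorspheres over adherent cells with SE bars for the 10 guidance genes in labelled KOs, KOd and wt, filled where adjusted p was under 0.05. SEMA3A stands at 2.72, 5.24 and 7.76, PLXNA1 at 2.40, 3.04 and 2.88, and NRP2 is below 0 in KOd and wt but not in labelled KOs.

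Whether the culture response itself differed from wt was tested with an interaction term. For labelled KOs 6 of the 10 responses differed, 1 more and 5 less positive than in wt, where 36.8% of all genes did (17.9% more and 19% less positive). For KOd 7 differed, 2 more and 5 less positive, where 29.1% of all genes did (14.4% more and 14.7% less positive). Leaving out the libraries that stood apart gave 7 for labelled KOs, where 46.1% of all genes differed, and 8 for KOd, where 42.1% did. The more positive response in labelled KOs was that of NRP2, by log2 3.14 ± 0.25 (adjusted p = 1.3e-07). The SEMA3A response was less positive in labelled KOs by log2 -5.04 ± 0.37 (adjusted p = 5.9e-08) and in KOd by -2.52 ± 0.42 (adjusted p = 2.5e-04). Both SEMA3A values rest on a wt 2D level of 13 to 18 reads per library. The UNC5B response differed by -2.59 ± 0.67 in labelled KOs (adjusted p = 0.0061, and -1.13 without replicate A of labelled KOs 2D) and by -4.61 ± 0.69 in KOd (adjusted p = 8.2e-05). The NTN4 response differed by -0.997 ± 0.19 in labelled KOs (adjusted p = 6.0e-04) and -1.25 ± 0.19 in KOd (adjusted p = 1.0e-04). For SLIT2 the KOd response was more positive by 2.41 ± 0.26 (adjusted p = 3.4e-06), and for ROBO1 it was less positive by -1.69 ± 0.19 (adjusted p = 4.7e-06). Both interactions share the 6 wt libraries, so they are not independent of each other.

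Within tumorspheres, labelled KOs had 1 gene higher and 7 lower than wt, where 56.3% of all genes were called (27.8% higher and 28.5% lower). KOd had 2 higher and 5 lower, where 34% of all genes were called (16.5% higher and 17.5% lower). With the libraries that stood apart removed, the counts were 2 and 7 for labelled KOs, where 64.9% of all genes were called, and 2 and 6 for KOd, where 45.3% were. The median log2 fold change of the 10 genes was -1.01 in labelled KOs and -0.66 in KOd, against 0.02 and 0.00 over all genes. Both pools were set against the same wt 3D libraries.

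SEMA3A was at 32.0 to 35.3 CPM in labelled KOs 3D and 48.9 to 53.2 CPM in KOd 3D, against 119 to 145 CPM in wt 3D. Each pool lay below wt without overlap (log2 -1.95 ± 0.21 in labelled KOs, adjusted p = 3.7e-07, and -1.37 ± 0.20 in KOd, adjusted p = 4.5e-05). ROBO1 was at 118 to 124 CPM in labelled KOs 3D and 77.9 to 87.5 CPM in KOd 3D, against 264 to 322 CPM in wt 3D (log2 -1.22 ± 0.13 and -1.76 ± 0.14, adjusted p = 4.9e-07 and 2.1e-08). NRP1 was at 456 to 476 CPM in labelled KOs 3D and 418 to 470 CPM in KOd 3D, against 841 to 882 CPM in wt 3D (log2 -0.88 ± 0.09 and -0.95 ± 0.09, adjusted p = 1.2e-07 and 1.4e-07). NTN4 was likewise lower in each, by log2 -1.13 ± 0.14 in labelled KOs (adjusted p = 1.5e-06) and -0.86 ± 0.14 in KOd (adjusted p = 7.8e-05). SEMA3A, a ligand, and NRP1, the receptor that binds it, were thus both lower in tumorspheres of either pool than in wt tumorspheres.

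Of the other genes, none was called in the same direction in each pool. Without the libraries that stood apart, UNC5B and PLXNA1 were called lower in each pool. SLIT2 was then called higher in each (log2 0.45 in labelled KOs, adjusted p = 0.002). NRP2 was at 39.2 to 41.4 CPM in labelled KOs 3D and 3.05 to 5.30 CPM in KOd 3D, against 5.81 to 7.02 CPM in wt 3D. It was 6.29-fold higher in labelled KOs (log2 2.65 ± 0.19, adjusted p = 2.3e-09). The NRP2 difference in KOd (log2 -0.51 ± 0.20, adjusted p = 0.0497) was lost on leaving out each of 5 of the 6 libraries, with a block on replicate letter in these 2 groups alone (adjusted p = 0.073), and without the libraries that stood apart (adjusted p = 0.205). The block in all groups kept the NRP2 call (log2 -0.53, adjusted p = 0.026). SEMA3C was lower in labelled KOs (250 to 260 CPM against 517 to 729 CPM in wt 3D, log2 -1.24 ± 0.22, adjusted p = 9.9e-05). In KOd it was at 573 to 634 CPM, inside the wt range (log2 -0.02 ± 0.21, adjusted p = 0.957). UNC5B was lower in labelled KOs (84.8 to 88.2 CPM against 321 to 438 CPM in wt 3D, log2 -2.08 ± 0.47, adjusted p = 0.00113). In KOd it was at 182 to 232 CPM, below each wt 3D library, but not called (log2 -0.80 ± 0.46, adjusted p = 0.191). The block on replicate letter in all groups did not call it either (log2 -0.81, adjusted p = 0.2). With the block in these groups alone UNC5B was called (log2 -0.78, adjusted p = 5.3e-04), and so it was without the libraries that stood apart (log2 -0.73, adjusted p = 0.00497). SLIT2 was at 145 to 159 CPM in KOd 3D against 72.0 to 74.4 CPM in wt 3D (log2 1.04 ± 0.18, adjusted p = 2.4e-04), and at 97.0 to 98.6 CPM in labelled KOs 3D (log2 0.42 ± 0.18, adjusted p = 0.0538). PLXNA1 was lower in labelled KOs (log2 -0.63 ± 0.11, adjusted p = 7.3e-05) and had a log2 fold change of -0.24 ± 0.11 in KOd (adjusted p = 0.085, and -0.36 with adjusted p = 0.0057 without replicate C of wt 3D). SEMA3F was higher in KOd (log2 0.56 ± 0.20, adjusted p = 0.0393), a call lost without replicate A or B of wt 3D or replicate C of KOd 3D (adjusted p = 0.15 to 0.22), and 0.91 without replicate C of wt 3D. In labelled KOs SEMA3F was at 45.4 to 48.9 CPM, within the wt 3D range (log2 -0.17 ± 0.20, adjusted p = 0.483).

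In adherent cells, labelled KOs had 1 gene higher and 4 lower than wt, where 53.2% of all genes were called (27.7% higher and 25.5% lower). KOd had 4 higher and 4 lower, where 44.6% of all genes were called (22.1% higher and 22.5% lower). With the libraries that stood apart removed, the counts were 1 and 7 for labelled KOs, against 63.7% of all genes then called, and 4 and 5 for KOd, against 59.7%. For KOd no library of the comparison was removed, and only the fit shared by all groups changed. Both pools were set against the same wt 2D libraries.

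SEMA3A was higher in each pool, at 2.84 to 7.55 CPM in labelled KOs 2D and 0.907 to 1.79 CPM in KOd 2D against 0.510 to 0.671 CPM in wt 2D (log2 3.09 ± 0.32 and 1.14 ± 0.38, adjusted p = 3.8e-07 and 0.0189). The KOd call was lost without replicate C of wt 2D or of KOd 2D (adjusted p = 0.065 and 0.1). SEMA3A was thus above wt in adherent cells of the pools and below wt in their tumorspheres. UNC5B was at 136, 165 and 250 CPM in KOd 2D against 11.2 to 15.4 CPM in wt 2D, 14.0-fold higher (log2 3.81 ± 0.52, adjusted p = 1.3e-05). In labelled KOs 2D it was at 42.0, 8.59 and 4.88 CPM, 1 library above and 2 below the wt range (log2 0.51 ± 0.49, adjusted p = 0.399). Without that high library, replicate A, UNC5B was lower in labelled KOs than in wt (log2 -0.96, adjusted p = 0.0036). SEMA3C was higher in KOd (283 to 340 CPM against 171 to 191 CPM in wt 2D, log2 0.80 ± 0.22, adjusted p = 0.00564). In labelled KOs 2D SEMA3C was at 253, 117 and 114 CPM (log2 -0.19 ± 0.21, adjusted p = 0.477, and -0.67 with adjusted p = 0.0001 without replicate A).

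SLIT2 was lower in KOd, at 34.5 to 44.2 CPM against 95.4 to 104 CPM in wt 2D (log2 -1.37 ± 0.19, adjusted p = 1.1e-05), and spread over 53.7 to 122 CPM in labelled KOs 2D (log2 -0.19 ± 0.18, adjusted p = 0.388, and -0.52 with adjusted p = 0.0053 without replicate C). ROBO1 was lower in labelled KOs, at 25.8 to 42.9 CPM against 64.9 to 73.8 CPM in wt 2D (log2 -1.06 ± 0.14, adjusted p = 4.2e-06), and at 61.6 to 73.8 CPM in KOd 2D (log2 -0.07 ± 0.13, adjusted p = 0.728). NRP1 was lower in each pool (log2 -0.63 ± 0.09 in labelled KOs and -0.36 ± 0.09 in KOd, adjusted p = 8.7e-06 and 0.00208). PLXNA1 was lower in KOd (log2 -0.40 ± 0.11, adjusted p = 0.00488). SEMA3F was lower in each pool (log2 -0.50 and -0.54, adjusted p = 0.0437 and 0.0369), calls that were lost on leaving out each of 5 of the 6 libraries for labelled KOs and any of the 6 for KOd. NRP2 was lower in labelled KOs (log2 -0.48 ± 0.17, adjusted p = 0.0241), a call lost without replicate A of labelled KOs 2D or replicate A or B of wt 2D (adjusted p = 0.075 to 0.095). In KOd it had a log2 fold change of -0.41 ± 0.17 (adjusted p = 0.0592). NTN4 was higher in KOd (log2 0.39 ± 0.13, adjusted p = 0.026), and the call was lost without replicate C of KOd 2D (log2 0.18, adjusted p = 0.24) or replicate A or B of wt 2D (adjusted p = 0.061 and 0.084).

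**Figure D4:**
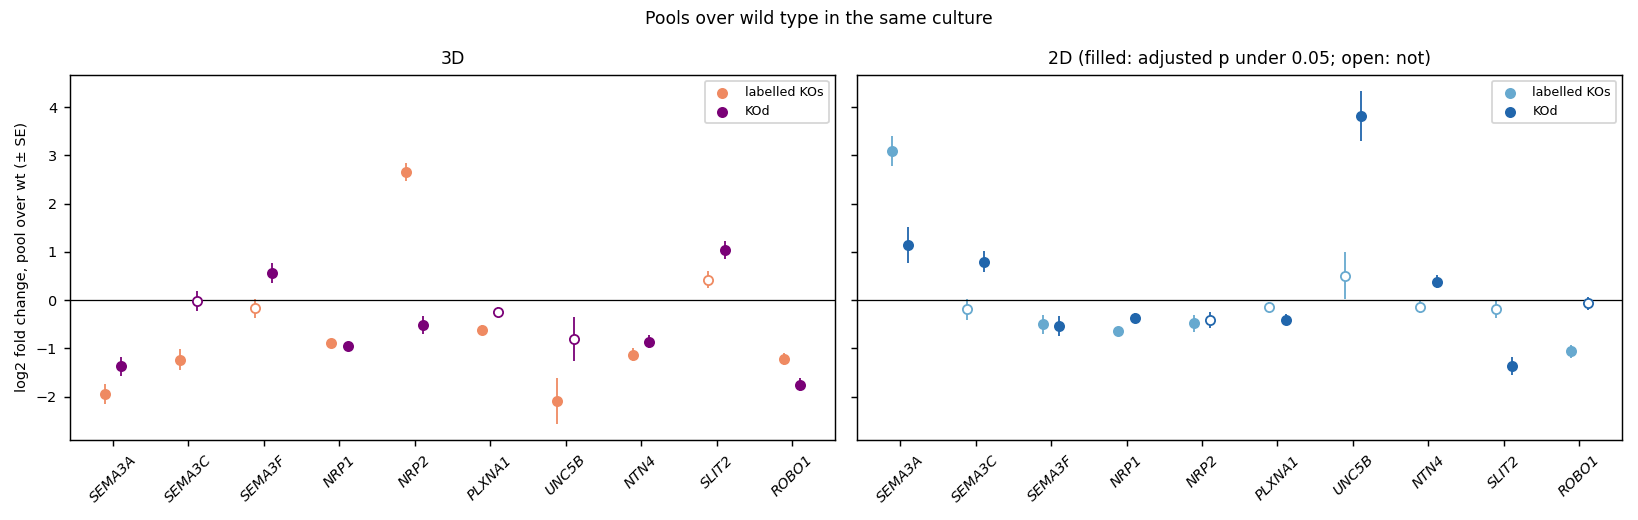
Log2 fold changes with SE bars of labelled KOs and of KOd over wt for the 10 guidance genes, in 3D and in 2D, filled where adjusted p was under 0.05. SEMA3A is at -1.95 and -1.37 in 3D and at 3.09 and 1.14 in 2D, while UNC5B in KOd is at 3.81 in 2D and NRP2 in labelled KOs is at 2.65 in 3D.

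KOd was also set directly against labelled KOs. In 3D 6 genes were higher and 2 lower in KOd, where 47.2% of all genes were called (23.9% higher and 23.3% lower). In 2D 5 were higher and 3 lower, where 59.6% of all genes were called (28.8% higher and 30.7% lower). Both pairs of counts were the same without the libraries that stood apart, where 60.7% of all genes were called in 3D and 69.9% in 2D. NRP2 in 3D was at 3.05 to 5.30 CPM in KOd against 39.2 to 41.4 CPM in labelled KOs (log2 -3.17 ± 0.19, adjusted p = 1.2e-09). UNC5B in 2D was at 136 to 250 CPM in KOd against 4.88 to 42.0 CPM in labelled KOs (log2 3.30 ± 0.50, adjusted p = 2.0e-05). In 3D the UNC5B difference was smaller, log2 1.28 ± 0.46 (adjusted p = 0.0302), and its call was lost on leaving out each of 5 of the 6 libraries. SEMA3C was higher in KOd in both cultures (log2 1.22 ± 0.22 in 3D and 0.98 ± 0.22 in 2D, adjusted p = 1.8e-04 and 7.2e-04). ROBO1 was lower in KOd in 3D (log2 -0.54 ± 0.13, adjusted p = 0.00283) and higher in 2D (log2 1.00 ± 0.14, adjusted p = 5.2e-06), and SLIT2 was the reverse (log2 0.62 ± 0.18 in 3D and -1.18 ± 0.18 in 2D, adjusted p = 0.00927 and 2.6e-05).

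Ratios within a library, per kilobase, show these opposed movements without a scaling between libraries. NRP1 over NRP2 was 15.0 to 15.5 in labelled KOs 3D and 110 to 179 in KOd 3D, against 164 to 191 in wt 3D. It was 11.6 to 17.8 in labelled KOs 2D and 13.1 to 23.1 in KOd 2D, against 13.9 to 20.6 in wt 2D. Labelled KOs tumorspheres thus had an NRP1 to NRP2 ratio like that of adherent cells. SLIT2 over ROBO1, ligand over receptor, was 0.763 to 0.818 in labelled KOs 3D and 1.62 to 1.85 in KOd 3D, against 0.227 to 0.270 in wt 3D. In 2D it was 1.23 to 4.64 in labelled KOs and 0.507 to 0.587 in KOd, against 1.29 to 1.49 in wt. The KOd ratio was above wt in 3D and below wt in 2D, with no overlap in either. NTN4 over UNC5B was 0.914 to 0.950 in labelled KOs 3D and 0.426 to 0.538 in KOd 3D, against 0.377 to 0.590 in wt 3D. In 2D it was 3.40 to 23.6 in labelled KOs and 0.863 to 1.11 in KOd, against 8.90 to 11.7 in wt.

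**Figure D5:**
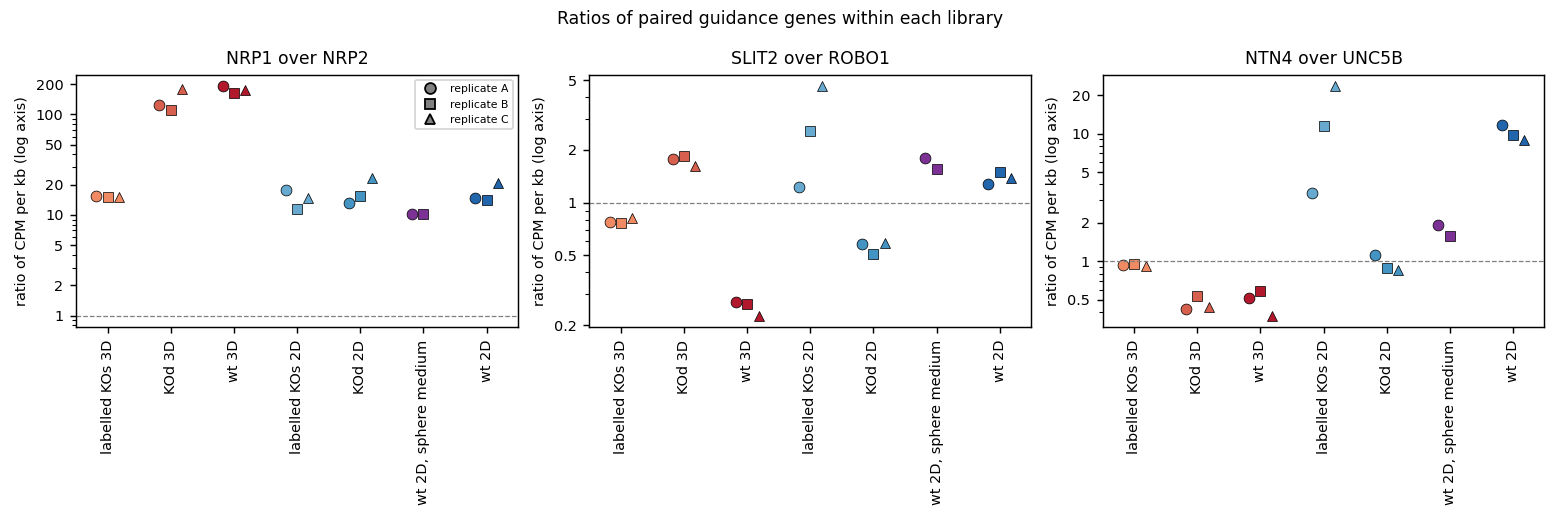
Ratio of CPM per kb within each library on a log axis for NRP1 over NRP2, SLIT2 over ROBO1 and NTN4 over UNC5B, with 1 point per library and a dashed line at a ratio of 1. NRP1 over NRP2 is 110 to 179 in KOd 3D and 164 to 191 in wt 3D, against at most 23.1 in the other groups, and SLIT2 over ROBO1 is 1.62 to 1.85 in KOd 3D against 0.227 to 0.270 in wt 3D.

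Of 86 other guidance genes, 71 passed the filter on low counts. In wt 3D 39 of the 71 (54.9%) were higher and 16 (22.5%) lower than in wt 2D, against 33.3% and 30.4% of all genes. Their median log2 fold change was 0.73, against 0.04 over all genes. With the libraries that stood apart left out, 43 of 70 (61.4%) were higher and 17 (24.3%) lower, against 36.1% and 34.4% of all genes. Of the other plexins, receptors of semaphorins, 7 of 8 were higher in wt 3D and none lower (8 of 8 higher without those libraries), with PLXNC1 at log2 3.14 ± 0.24, PLXNA4 at 4.08 ± 0.34 and PLXND1 at 3.76 ± 0.38 (adjusted p = 3.9e-09, 1.5e-08 and 1.8e-07). Of the other semaphorins, 8 of 14 were higher and 1 lower (10 and 2 without those libraries). SEMA4C, a plexin-B2 ligand, rose by log2 2.26 ± 0.12 (adjusted p = 8.0e-11), SEMA5A by 2.13 ± 0.27 (adjusted p = 2.3e-06), and SEMA7A, a membrane-anchored semaphorin that binds integrins and plexin-C1, fell by 2.08 ± 0.24 (adjusted p = 9.7e-07). Of the other netrins and netrin receptors, 5 of 7 were higher in wt 3D and none lower (5 of 6 without those libraries). UNC5C, another repulsive netrin receptor, had 134 to 179 reads in wt 3D libraries against 0 to 1 in wt 2D libraries. NTN1, the founding netrin, had 24 to 26 reads in wt 3D against 0 to 2 in wt 2D. Of the intracellular effectors, 9 of 21 were higher and 8 lower (10 and 8 without those libraries), and MICAL2, SRGAP1 and PTK2 had log2 fold changes of -1.33 ± 0.09, -1.67 ± 0.13 and -0.78 ± 0.07 (adjusted p = 1.3e-09, 6.4e-09 and 1.9e-08). Among co-receptors and other ligands, VEGFA, which also binds neuropilins, rose by log2 2.04 ± 0.14 (adjusted p = 1.6e-09), while MET, a partner of plexins, and CSPG4 had log2 fold changes of -2.13 ± 0.13 and -2.30 ± 0.15 (adjusted p = 4.1e-10 and 7.1e-10).

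In tumorsphere medium 12 of the 71 other guidance genes (16.9%) were higher and 22 (31%) lower than in standard wt 2D, against 15.6% and 16.4% of all genes (median log2 -0.20, against 0.00 over all genes). With the libraries that stood apart left out, 16 of 70 (22.9%) were higher and 30 (42.9%) lower, against 24.5% and 24.8% of all genes. VEGFA was again higher (log2 1.16 ± 0.15, adjusted p = 1.8e-05), SEMA4A was higher (log2 2.23 ± 0.35, adjusted p = 1.0e-04), and PLXNA2 was lower (log2 -2.001 ± 0.27, adjusted p = 2.7e-05). In the pools' own culture comparison, 38 (53.5%) were higher and 20 (28.2%) lower in labelled KOs 3D, against 32.9% and 32.1% of all genes (median log2 0.58, against 0.02 over all genes). In KOd 3D 38 (53.5%) were higher and 15 (21.1%) lower, against 35.2% and 31.2% of all genes (median log2 0.64, against 0.07 over all genes). Leaving out the libraries that stood apart, these were 41 and 19 of 70 in labelled KOs, where 40.2% of all genes were higher and 35.6% lower, and 39 and 16 in KOd, where 38.7% were higher and 35.6% lower. Of the other plexins 7 of 8 were higher in 3D and 1 lower in labelled KOs, the same without those libraries, and 7 of 8 were higher and none lower in KOd (8 of 8 higher without those libraries).

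Against wt 3D, 21 of the 71 (29.6%) were higher and 24 (33.8%) lower in labelled KOs 3D, shares near the 27.8% and 28.5% of all genes (median log2 -0.15, against 0.02 over all genes). In KOd 3D 10 (14.1%) were higher and 24 (33.8%) lower, against 16.5% and 17.5% of all genes (median log2 -0.14, against 0.00 over all genes). Without the libraries that stood apart these were 23 and 28 of 70 in labelled KOs, where 33.5% of all genes were higher and 31.4% lower, and 11 and 26 in KOd, where 21.9% were higher and 23.4% lower. SEMA4C was lower in each, by log2 -1.31 ± 0.12 in labelled KOs and -1.29 ± 0.12 in KOd (adjusted p = 5.0e-08 and 1.8e-07). UNC5C had 0 to 2 reads in labelled KOs 3D libraries and 3 to 4 in KOd 3D libraries, against 134 to 179 in wt 3D libraries. SLIT3 had 137 to 168 reads in labelled KOs 3D and 2 to 13 in KOd 3D, against 0 to 1 in wt 3D. NEO1, neogenin, a receptor of netrins and repulsive guidance molecules, was higher by log2 1.15 ± 0.22 in labelled KOs and 3.01 ± 0.23 in KOd (adjusted p = 2.3e-04 and 1.5e-08). ADAMTS1, a secreted protease, was lower by log2 -4.53 ± 0.31 and -2.86 ± 0.28 (adjusted p = 1.4e-09 and 3.3e-07). Against wt 2D, 14 (19.7%) were higher and 21 (29.6%) lower in labelled KOs 2D, where 27.7% of all genes were higher and 25.5% lower (median log2 -0.15, against 0.06 over all genes). In KOd 2D 16 (22.5%) were higher and 18 (25.4%) lower, near the 22.1% and 22.5% of all genes (median log2 -0.06, against 0.01 over all genes). With those libraries removed these were 10 and 31 of 70 in labelled KOs, where 31.8% of all genes were higher and 31.9% lower, and 21 and 23 in KOd, where 29.9% were higher and 29.8% lower. SEMA6D was higher by log2 3.20 ± 0.31 in labelled KOs 2D and 1.61 ± 0.33 in KOd 2D (adjusted p = 2.4e-07 and 5.6e-04), VEGFA by 1.10 ± 0.14 and 1.63 ± 0.14 (adjusted p = 4.1e-06 and 7.2e-08), and ITGB1, the integrin beta-1 subunit, was lower by -0.76 ± 0.09 and -0.74 ± 0.09 (adjusted p = 1.8e-06 and 3.7e-06).

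Marker lists of other cell types were read beside these values. Of the 6 fibroblast markers THY1 was at or near 0 (at most 0.0732 CPM), while the summed level was 494 to 515 CPM in labelled KOs 3D, 336 to 412 CPM in KOd 3D and 1307 to 1665 CPM in wt 3D, against 98.9 to 231 CPM in labelled KOs 2D, 79.8 to 80.9 CPM in KOd 2D and 94.8 to 115 CPM in wt 2D, and 413 to 434 CPM in the medium group. PDGFRA, PDGFRB and DCN made up most of it. It was highest in wt 3D, as SEMA3A, SEMA3C, NRP1, PLXNA1, UNC5B, NTN4 and ROBO1 were by group mean. SEMA3F and NRP2 were highest in wt 2D and SLIT2 in KOd 3D. In the medium group the sum was above wt 2D. SEMA3A was higher there than in wt 2D, SEMA3C, NRP1 and NTN4 lower, and 6 not called. The sum was above KOd 2D in KOd 3D as well. SEMA3A, SEMA3C, PLXNA1, ROBO1 and SLIT2 were higher there than in KOd 2D, NTN4 and NRP2 lower, and 3 not called. The part of the fibroblast marker sum in these results was not tested.

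The 8 endothelial markers summed to 36.9 to 41.7 CPM in labelled KOs 3D, 97.7 to 107 CPM in KOd 3D and 57.5 to 79.8 CPM in wt 3D, against 28.9 to 57.6 CPM in labelled KOs 2D, 13.4 to 14.4 CPM in KOd 2D and 19.5 to 23.1 CPM in wt 2D, and 25.97 to 26.97 CPM in the medium group. The defining markers CDH5, CLDN5 and EMCN were at or near 0 in every library (at most 0.160 CPM), while PECAM1 reached 97.1 CPM, KDR 29.1 CPM and ERG 21.1 CPM. The sum and SLIT2 were each highest in KOd 3D and lowest in KOd 2D. Their order differed elsewhere. SLIT2 averaged 73.1 CPM in wt 3D, where the sum was 57.5 to 79.8 CPM. It averaged 133 CPM in the medium group, where the sum was 25.97 to 26.97 CPM. The 8 neural markers summed to 15.7 to 16.2 CPM in labelled KOs 3D, 19.5 to 22.3 CPM in KOd 3D and 20.38 to 22.03 CPM in wt 3D, against 49.6 to 149 CPM in labelled KOs 2D, 141 to 169 CPM in KOd 2D and 163 to 181 CPM in wt 2D, and 41.8 to 42.1 CPM in the medium group. RBFOX3, DCX and ELAVL4 were at or near 0 (at most 0.0639 CPM), and MAP2 ran from 6.65 to 180 CPM. The neural sum was low in KOd 3D and wt 3D, as NRP2 was, and lowest in labelled KOs 3D, where NRP2 was not low. The 8 leukocyte markers summed to at most 8.33 CPM. The part of the endothelial and neural sums in these results was not tested.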

How the data were processed

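SUM159PT mRNA was measured in 20 stranded TruSeq libraries in 7 groups. The authors deposited whole-number read counts per Entrez gene with a gene length column, made with STAR and hg38 per the submitters' processing notes; the counter, its strand setting and the annotation are not given in the sources used here. Of the 27864 Entrez IDs, 124 had no symbol in RefSeq's GRCh38.p14 gene table, which also gave positions. CPM per kb used the deposited length, an annotated value in bases per the file headers.

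Genes were filtered with filterByExpr and scaled by TMM in edgeR 4.0.16 (R 4.3.3), leaving 16323. The quasi-likelihood fit took all 20 libraries with a coefficient for each of the 7 groups (13 residual degrees of freedom, biological coefficient of variation 0.143). Adjusted p is Benjamini-Hochberg over all genes tested, called under 0.05, and ± after a log2 fold change is its SE from the F statistic. The script was tested on simulated data. The 10 genes, the 6 lists of other guidance genes and the tests were chosen with earlier results of these data known. Named list genes are those with the smallest adjusted p per list and comparison, at most 3, called in each pool for pool comparisons. The alternatives tried were DESeq2 1.42.0, no filter on low counts, a stricter one (1 CPM in 3 libraries), scaling by RLE factors or by library totals alone, limma-voom (limma 3.58.1), the compared groups alone, a block on replicate letter, adjusted p under 0.01 and leaving out each library. Leaving out the 3 libraries that stood apart, and the block in wt 3D and KOd 3D alone, were chosen after seeing the data. Same-letter libraries of KOd 3D and wt 3D deviated together (r = 0.210, 0.218 and 0.342 for A, B and C), from the data and not from the labels; in no other pair of groups was every r over 0.1. No replicate pair agreed within sampling noise.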

Additional observations from a re-analysis of the deposited data

Results flagged for a closer look

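The culture response (3D over 2D) of 6 genes differed between labelled KOs and wt by the interaction term at adjusted p under 0.05, on the log2 scale by -5.04 for SEMA3A, -1.05 for SEMA3C, -2.59 for UNC5B, -0.48 for PLXNA1, -0.997 for NTN4 and 3.14 for NRP2. For SEMA3C (adjusted p = 0.0116) the difference was -0.57 without replicate A of labelled KOs 2D, and for PLXNA1 (adjusted p = 0.019) the call was lost without replicate A of wt 2D or of wt 3D (adjusted p = 0.057 and 0.058). For UNC5B it was -1.13 without replicate A of labelled KOs 2D.

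The culture response of 7 genes differed between KOd and wt, by -2.52 for SEMA3A, -4.61 for UNC5B, -1.25 for NTN4, -1.69 for ROBO1, 1.10 for SEMA3F, -0.59 for NRP1 and 2.41 for SLIT2. None of these 7 lost its call when a library was left out.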

How the results depend on the processing

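Of the guidance gene values over all alternatives, 2005 kept direction and side of the threshold, 103 lost a call, 44 gained one and 38 changed sign; the cause was not tested. With library totals alone the median log2 fold change over all genes was over 0.1 in 7 comparisons. It was largest in labelled KOs 3D against 2D, at 0.24 against 0.02 in the main fit. With this scaling log2 values changed sign for SEMA3C in KOd 3D against wt 3D (0.15), SEMA3F in labelled KOs 3D against wt 3D (0.01) and KOd 2D against labelled KOs 2D (0.12), and ROBO1 in KOd 2D against wt 2D (0.049) and the labelled KOs interaction (0.057). With limma-voom UNC5B in labelled KOs 2D against wt 2D was -0.047. Without the libraries that stood apart the sign changed for SEMA3C in KOd 3D against wt 3D (0.10), SEMA3F in KOd 3D against 2D (-0.13), labelled KOs 3D against wt 3D (0.18) and KOd 2D against labelled KOs 2D (0.11), NRP2 in KOd 2D against labelled KOs 2D (-0.034) and the KOd interaction (0.10), PLXNA1 in the KOd interaction (-0.012), UNC5B in labelled KOs 2D against wt 2D (-0.96), SLIT2 in labelled KOs 3D against 2D (-0.077) and labelled KOs 2D against wt 2D (0.061), ROBO1 in the labelled KOs interaction (0.16) and NNMT in labelled KOs 3D against wt 3D (0.046). NNMT in labelled KOs 2D against wt 2D was then called (-0.31). Called members in labelled KOs 2D against wt 2D were then 8, and called genes in tumorsphere medium against wt 2D 7968. At adjusted p under 0.01 those were 3 members and 3224 genes, with 5 members in KOd 2D against wt 2D and 3798 and 2822 genes in the labelled KOs and KOd interactions. With the compared groups alone 5 members were called in KOd 2D against labelled KOs 2D.

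Leaving out each library gave 2752 to 4531 genes called for tumorsphere medium, 3 to 6 members for labelled KOs 2D against wt 2D and 5 to 8 for KOd 2D against wt 2D. NNMT ran from -0.31 to 0.055 in labelled KOs 2D against wt 2D and from -0.35 to 0.022 in 3D. Uncalled values that changed sign ran, for NRP2, from -0.063 to 0.20 in KOd 2D against labelled KOs 2D, -0.24 to 0.10 in the KOd interaction and -0.21 to 0.019 in tumorsphere medium; for ROBO1 from -0.32 to 0.055 in the labelled KOs interaction; for SEMA3C from -0.12 to 0.15 in KOd 3D against wt 3D and -0.67 to 0.009 in labelled KOs 2D against wt 2D; for SEMA3F from -0.19 to 0.11 in KOd 2D against labelled KOs 2D, -0.13 to 0.21 in KOd 3D against 2D and -0.34 to 0.15 in labelled KOs 3D against wt 3D; for SLIT2 from -0.52 to 0.063 in labelled KOs 2D against wt 2D and -0.082 to 0.50 in labelled KOs 3D against 2D; and for UNC5B from -0.96 to 0.95 in labelled KOs 2D against wt 2D and -0.001 to 0.23 in tumorsphere medium.

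With the replicate block in all groups 7 members were called in KOd 3D against wt 3D, as without it, and 5590 genes. The block in KOd 3D and wt 3D alone also called 7 members, with UNC5B in place of NRP2, and with SEMA3C at 0.007. Counts of 13 or more reads per member and library limit the precision for SEMA3A in 2D most.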

Other observations

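Of the 10 genes, SEMA3A, UNC5B and NRP2 ranged most over the 7 group means (7.63, 4.90 and 3.30 on the log2 CPM scale). Over the 20 libraries, which share the 7 groups, the genes whose log2 CPM followed SEMA3A most closely among 11263 genes were SH3PXD2A, ARHGEF3 and ARRB1 (Pearson r = 0.985, 0.984 and 0.981). For UNC5B they were TRPS1, YPEL2 and MSC-AS1 (r = 0.967, 0.958 and 0.958), and for NRP2 they were DBF4B, TROAP and RAD54L (r = 0.958, 0.947 and 0.941). Among the 10 genes themselves, SEMA3A and PLXNA1 had r = 0.936 and SEMA3C and UNC5B had r = 0.904, while NRP2 had r = -0.811 with SEMA3C. These values describe 20 libraries that fall into 7 groups.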
